A study of Bos taurus with 147 samples.

Results

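The comparison described here is the difference in gene expression between 2 cattle crosses at a sampling point labelled T2: Piedmontese x Hereford cattle (PxH) against Wagyu x Hereford cattle (WxH), in longissimus dorsi muscle, the long muscle of the back. Its members are the 4 arrays, of 147 in the series, on which RNA of one cross at T2 was hybridised in one dye and RNA of the other cross at T2 in the other dye. Replicates 1 and 3 carried PxH in Cy5, and replicates 2 and 4 carried WxH in Cy5, so that the dyes were balanced. The same bovine cDNA array was used for 4 PxH against WxH arrays at T1, for 4 at T3, and for 8 arrays that linked T2 to T1 or to T3 within a cross, 2 for each pair. Both crosses share the Hereford parent. The labels do not say at what age T1, T2 and T3 were taken, how the cattle were fed, how many animals gave the RNA or whether it was pooled. The p-values below therefore measure the spread between arrays, which may be technical. Unless stated otherwise, each SE and p-value takes that spread from all 20 arrays named here, not from the 4 T2 arrays alone.

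Wagyu cattle are known for depositing much fat within muscle. Piedmontese cattle are known for heavy muscling and a mutant form of GDF8 (myostatin), an inhibitor of muscle growth. Longissimus muscle holds contractile fibres, fat cells that lie between the fibres, and fibroblasts that make the collagen-rich matrix around them. Fat cells make fatty acids with the enzymes ACACA and FASN, introduce double bonds with SCD, carry fatty acids with FABP4 and release the hormone adiponectin (ADIPOQ).

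All values are log2 ratios of PxH over WxH, with each array centred on its median, so a value below 0 is a lower level in PxH. A ratio carries no level, so the tissue named in the labels could not be checked against marker levels. The direction is likely and not certain, since the deposited table does not state that its ratios are Cy5 over Cy3. With that direction, muscle creatine kinase (CKM) was higher at birth than at d195 of gestation on 6 of 6 fetal arrays of the same table (median log2 ratio 1.44), and the matrix genes COL3A1 (median -2.65) and FN1 (median -2.29) were higher at birth on 0 of 6. If the order were reversed, every sign below would turn. Of 17220 features tested, 973 had a gene name, each being the mean of all array elements of that gene. Every other element was a feature of its own. The study states that the probes of its array were printed in duplicate, so duplicate spots of a probe can count as separate features. Counts of features or of elements are therefore not counts of independent measurements. Elements of a gene family can bind each other's RNA, and cDNA elements do not separate close relatives.

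The T2 arrays fell into 2 pairs whose members resembled each other more than they resembled the rest. Over 973 named genes, with the fitted dye effect taken off, replicates 1 and 2 correlated at 0.65 and replicates 3 and 4 at 0.63, against 0.10 to 0.26 for the other 4 combinations. The members of each pair have swapped dyes. The same pairs stood out at T1 (0.837 and 0.603, against -0.228 to -0.116 for the others) and at T3 (0.621 and 0.825, against -0.278 to -0.143). Whether a pair shares the same RNA is not given in the labels, and if it does, the number of independent samples is 2 and not 4 at each time. The count of genes is therefore given without and with the pair as a random block.

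At T2 the test passed 198 of 17220 features at an adjusted p under 0.05 (limma, Benjamini-Hochberg adjustment), which is 1.15% of those tested. Of these, 172 were lower in PxH (0.999%) and 26 were higher (0.151%), and 178 of the 198 had no gene name. Among named genes 20 of 973 passed (2.06%), and all 20 were lower in PxH: SCARF1, SCD, COL1A1, ADIPOQ, FABP4, SH3BP4, FMOD, EMP1, COL1A2, RPL14, CLU, FN1, ACSM1, HSPB7, ACACA, NFKB2, SPARC, BoLA, IGFBP6 and CNN1. Of the 20, 19 were lower on all 4 T2 arrays, which held for 11.3% of all features, and CNN1 was above 0 on 1 array. The genes were called on the mean of these same arrays, so the shared sign largely follows from the call. No named gene passed in the other direction, although 38 named genes were higher at an unadjusted p under 0.05. With each dye-swap pair as a random block (fitted correlation 0.72 within pairs), 15 features passed, all lower in PxH, and the named ones were SCD, COL1A1, SCARF1, FABP4 and COL1A2, each with an adjusted p of 0.048. Without replicate 1 the number that passed was 94 and without replicate 2 it was 75, and of the 20 named genes 8 passed whichever array was left out (SCARF1, SCD, COL1A1, ADIPOQ, FABP4, FMOD, COL1A2 and ACSM1). With every array also scaled to the same spread, 416 features passed, 304 of them lower in PxH (73.1%, against 86.9% without the scaling), and 35 named genes passed, among them TPI1, SLC2A4, LIPE and MYOZ3 as higher in PxH. With the 2 arrays of each pair averaged, no feature passed in limma, and 488 had an unadjusted p under 0.05. From the 4 T2 arrays alone no feature passed either, and without a dye term 1878 had an unadjusted p under 0.05 (limma).

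**Figure D1:**
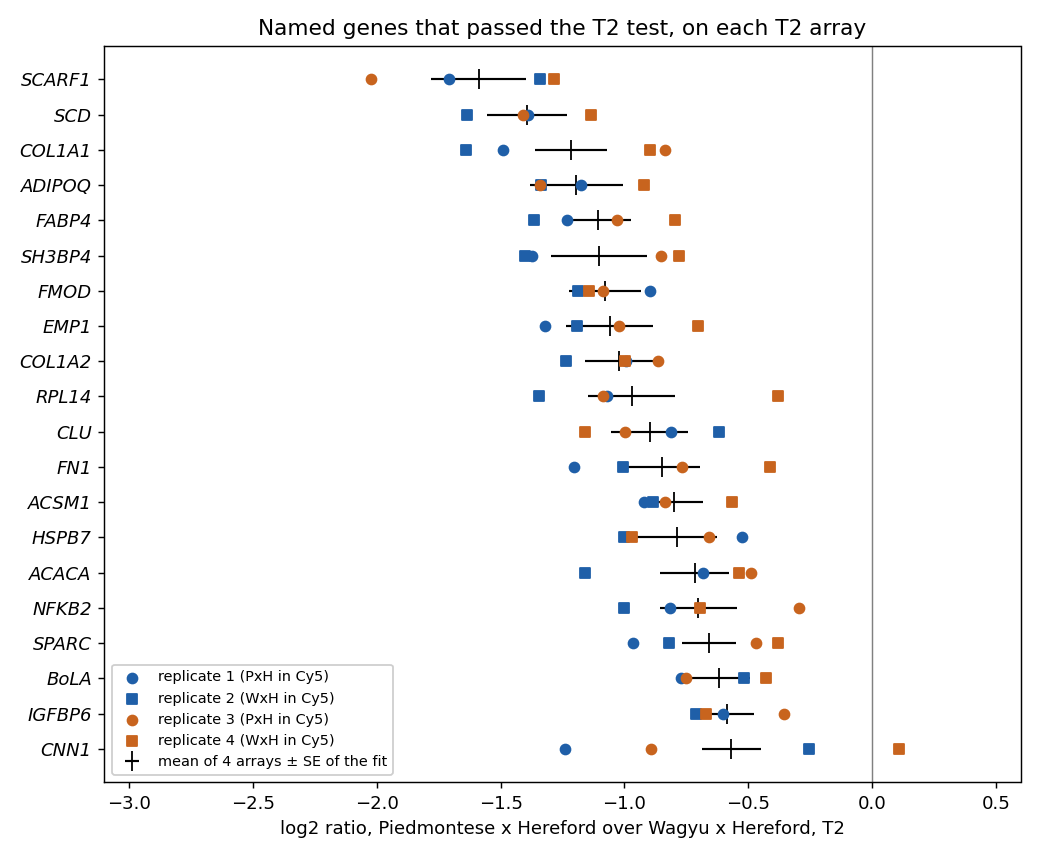
The log2 ratio of PxH over WxH at T2 (horizontal axis) for the 20 named genes that passed the test (vertical axis), with 1 point per array, blue for replicates 1 and 2 and orange for replicates 3 and 4. Circles have PxH in Cy5 and squares have WxH in Cy5. The black tick and line are the mean of 4 arrays and its SE from the fit over 20 arrays. All points lie below 0 except that of CNN1 on replicate 4.

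SCD, FABP4, ADIPOQ, ACACA and ACSM1 act on fatty acids or in fat cells. SCD, the desaturase that makes monounsaturated fatty acids, had ratios of -1.39, -1.64, -1.41 and -1.14 on replicates 1 to 4. All 4 arrays put SCD lower in PxH, and its mean of -1.39 (SE 0.16, 95% confidence interval -1.74 to -1.05, adjusted p = 0.000966, limma) is a level 2.63-fold higher in WxH. In tissue RNA, fewer fat cells and less RNA per fat cell cannot be told apart. FABP4, the fatty acid carrier of fat cells, had ratios of -1.23, -1.37, -1.03 and -0.80. Its mean of -1.11 (SE 0.13, adjusted p = 0.000966, limma) rested on 76 elements, of which 72 were lower in PxH. ADIPOQ, which encodes adiponectin, had ratios of -1.18, -1.34, -1.34 and -0.92, and all of its 22 elements were lower in PxH. Its mean was -1.19 (SE 0.19, adjusted p = 0.0033, limma). ACACA, which makes the malonyl units for fatty acid synthesis, had a mean of -0.72 (SE 0.14, adjusted p = 0.0173, limma), with arrays between -1.16 and -0.49. ACSM1, an enzyme that activates medium-chain fatty acids, had a mean of -0.80 (SE 0.12, adjusted p = 0.00229, limma), with arrays between -0.92 and -0.56.

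Other genes of the same lists did not pass. Among 11 measured lipogenic enzymes and regulators, 2 were lower at the threshold (SCD and ACACA, against 0.999% of all features), none were higher, and the median was -0.23, against -0.002 over all named genes. With the random pair block SCD alone passed, and ACACA had an adjusted p of 0.336 (limma). TKT, an enzyme of the pentose phosphate pathway, which supplies reducing power for fatty acid synthesis, had ratios of -0.57, -0.66, -0.21 and -0.53 (adjusted p = 0.0612, limma), and THRSP, a regulator of lipogenesis, had a mean of -0.42 (adjusted p = 0.196, limma). FASN, the fatty acid synthase, had ratios of -0.55, -0.24, -0.30 and 0.12 and did not pass. Among 17 measured adipocyte and fatty acid carrier genes, 2 were lower at the threshold (FABP4 and ADIPOQ, against 0.999% of all features), none were higher, and the median was -0.06. With the random pair block FABP4 alone passed, and ADIPOQ had an adjusted p of 0.143 (limma). PLIN1, which coats lipid droplets, had a mean of -0.49 (adjusted p = 0.126, limma), while the ratios of LEP (leptin, -0.09) and LPL (lipoprotein lipase, 0.12) lay near 0. LIPE, the hormone-sensitive lipase, lay on the other side, with 0.77, 0.61, 0.30 and 0.19 on the 4 arrays, and did not pass (adjusted p = 0.122, limma). FABP5, a fatty acid carrier related to FABP4, had a mean of 0.02 (SE 0.12). Among 11 measured genes of fatty acid oxidation none passed, and the median was 0.005. PDK4, a kinase that turns off pyruvate oxidation, had ratios of -1.18, -0.61, -1.68 and -0.84 (adjusted p = 0.196, limma).

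COL1A1, COL1A2, FMOD, FN1 and SPARC encode proteins of the extracellular matrix. COL1A1, a chain of fibrillar type I collagen, had ratios of -1.49, -1.64, -0.84 and -0.90, and all of its 68 elements were lower in PxH. Replicates 1 and 2 were further from 0 than replicates 3 and 4, and the mean was -1.22 (SE 0.15, adjusted p = 0.000966, limma). COL1A2, the partner chain, had ratios of -0.99, -1.24, -0.87 and -0.996, with all of its 24 elements lower and a mean of -1.02 (SE 0.14, adjusted p = 0.00146, limma). FMOD, the small proteoglycan fibromodulin that binds collagen fibrils, had ratios of -0.90, -1.19, -1.09 and -1.14. Its 4 arrays lay close together around a mean of -1.08 (SE 0.15, adjusted p = 0.00148, limma). FN1 (fibronectin) had a mean of -0.85 (SE 0.15, adjusted p = 0.00982, limma), and SPARC, a matrix protein that binds collagen, had a mean of -0.66 (SE 0.11, adjusted p = 0.0054, limma). Both were lower on all 4 arrays, and the ratios of SPARC were -0.96 and -0.82 on replicates 1 and 2 against -0.47 and -0.38 on replicates 3 and 4.

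Of 7 measured collagens 2 were lower at the threshold (0.999% of all features) and none were higher, with a median of -0.33 that was -0.18 without replicate 2. Both passed with the random pair block. COL3A1, the chain of type III collagen, had ratios of -0.69, -0.60, -0.10 and 0.08 (adjusted p = 0.311, limma), so replicates 1 and 2 gave most of its mean of -0.33. The ratios of COL4A1 (0.03) and COL5A3 (0.002) lay near 0. Of 24 other matrix genes 3 were lower at the threshold (FMOD, FN1 and SPARC, against 0.999% of all features) and none were higher. With the random pair block none of the 24 passed, with adjusted p of 0.143, 0.273 and 0.118 for these 3 (limma). Of the 24, 20 had a mean below 0, against 488 of all 973 named genes, and the median was -0.17. MGP, an inhibitor of calcification, had ratios of -0.54, -0.75, -0.81 and -0.75 (adjusted p = 0.0637, limma).

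The other 10 named genes that passed belong to several functions. SCARF1, a scavenger receptor, had the lowest mean of all named genes, -1.59 (SE 0.19, adjusted p = 0.000966, limma), with ratios of -1.71, -1.34, -2.02 and -1.28 from 2 elements. EMP1, a membrane protein, had a mean of -1.06 (SE 0.18, adjusted p = 0.00532, limma), and SH3BP4, an adaptor protein of endocytosis, had a mean of -1.10 (SE 0.20, adjusted p = 0.0089, limma). CLU (clusterin, a secreted chaperone) had ratios of -0.81, -0.62, -0.997 and -1.16, and here replicates 3 and 4 were further from 0. IGFBP6, which binds insulin-like growth factors, had a mean of -0.59 (SE 0.11, adjusted p = 0.0117, limma), the only one of 18 measured growth regulators and myogenic factors to pass (0.999% of all features were lower). It passed in 1 of 4 tests without 1 T2 array and had an adjusted p of 0.44 with the random pair block (limma). BoLA, a name for class I histocompatibility genes, which form a family of near-identical copies, had a mean of -0.62 (SE 0.12, adjusted p = 0.0187, limma). NFKB2, a transcription factor subunit of immune signalling, had a mean of -0.70 (SE 0.15, adjusted p = 0.0377, limma). BoLA and NFKB2 passed in 0 of 4 tests without 1 T2 array.

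CNN1, a smooth muscle calponin, had ratios of -1.24 and -0.89 with PxH in Cy5 and of -0.25 and 0.11 with WxH in Cy5, so its arrays split by dye. It passed in 1 of 4 tests without 1 T2 array and had an adjusted p of 0.877 with the random pair block (limma). On an array that carried PxH RNA of T1 in both dyes its centred ratio was -2.06, the furthest from 0 among the 20 genes. MCAM, a vessel wall adhesion molecule, had a like split, with -1.55 and -0.69 against -0.26 and 0.07 (adjusted p = 0.136, limma). Of 4 measured endothelial and mural markers CNN1 alone passed (0.999% of all features were lower), and 0 were below 0 on all 4 T2 arrays. The median was -0.46, further from 0 than that of any other list. On the array with PxH RNA of T1 in both dyes, which holds no difference between crosses, the median of these markers was -0.38. Their summed level is not known from ratios. Of 5 measured immune markers none passed, with means between -0.33 and 0.15. No marker of blood or nerve on the lists was measured. The part of vessel and immune cells in the results was not tested.

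RPL14, a protein of the large ribosomal subunit, had ratios of -1.07, -1.34, -1.09 and -0.38 (mean -0.97, SE 0.18, adjusted p = 0.0108, limma) from 2 elements. It was the only one of 49 measured ribosomal protein genes to pass (0.999% of all features were lower). It did not pass without replicate 1, 2 or 3, nor with the random pair block (adjusted p = 0.397, limma). Of the 49, 46 had a mean below 0, against 488 of all 973 named genes, and the median was -0.16, with RPS7 (mean -0.59, adjusted p = 0.165, limma) next to RPL14 in p. At T1 the same list had a median of -0.12 and at T3 of -0.21. HSPB7, a small heat shock protein of striated muscle, had ratios of -0.52, -1.002, -0.66 and -0.97 (mean -0.79, SE 0.16, adjusted p = 0.0268, limma), the only one of 13 measured heat shock and chaperone genes to pass (0.999% of all features were lower). It passed in 0 of 4 tests without 1 T2 array, and not with no centring, with no dye term or with the random pair block (adjusted p = 0.36, limma).

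No measured gene of the lists of muscle fibre types, calcium handling and energy supply passed. Of 20 measured genes of glycolysis and glycogen, none passed and 2 had a mean below 0, against 488 of all 973 named genes, with a median of 0.21. With arrays scaled to the same spread 2 of the 20 passed, and 3 with array weights or with 1 coefficient for each group. TPI1, triosephosphate isomerase, had ratios of 0.56, 0.37, 0.52 and 0.17, a level 1.32-fold higher in PxH (adjusted p = 0.0899, limma). SLC2A4, the insulin-responsive glucose transporter GLUT4, had ratios of 0.85, 0.65, 0.54 and 0.39 (adjusted p = 0.101, limma). ALDOA, the muscle aldolase, had a mean of 0.21 (adjusted p = 0.432, limma). PFKFB3, a kinase that sets the level of a glycolytic activator, was far lower on replicates 3 and 4 (-2.65 and -2.84) than on replicates 1 and 2 (-0.37 and -0.47), and its mean of -1.58 (SE 0.44) did not pass (adjusted p = 0.12, limma). The 9 measured fast fibre genes all had a mean above 0, between 0.03 and 0.29, and the 10 measured slow oxidative fibre genes ranged from -0.63 (CSRP3) to 0.51 (ATP2A2). ATP2A2, the calcium pump of slow fibres, had ratios of -0.25 and -0.12 with PxH in Cy5 and of 0.90 and 1.49 with WxH in Cy5, so its arrays split by dye.

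The remaining lists of muscle metabolism were alike in having no member past the threshold. The median was 0.15 for 10 measured genes of ATP synthase, 0.22 for 8 of the citric acid cycle, 0.05 for 9 of complex I and 0.11 for 9 of cytochrome c oxidase. CKM had ratios of 0.37, 0.57, 0.61 and 0.53 (mean 0.52, SE 0.20, adjusted p = 0.316, limma). All 4 were above 0. MYOZ3, a Z-disc protein, had ratios of 0.61, 0.53, 0.55 and 0.62 (adjusted p = 0.165, limma). CCDC88C, ADCY2, CYRIB and COQ10A were also above 0 on all 4 arrays, as 9.87% of all features were, with means between 0.34 and 0.67, and did not pass. MATR3, a nuclear matrix protein, had a mean of 0.29 (SE 0.29). Of 72 genes taken from those that the study had listed as differing between the sire breeds in fetal muscle, not its whole list, 60 were measured, and 6 were lower in PxH at T2 at the threshold (SCD, COL1A1, COL1A2, FABP4, FN1 and SPARC, against 0.999% of all features) and none were higher, with a median of -0.07. With the random pair block 4 passed, without FN1 and SPARC. That list was chosen on fetal arrays of the same platform, not on the T2 arrays. It mixes genes that the study reports as higher in Piedmontese-sired calves at birth, such as ribosomal proteins, with genes reported as lower, such as collagens. The directions were not compared gene by gene, and the 6 genes are also counted in the lists above.

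**Figure D2:**
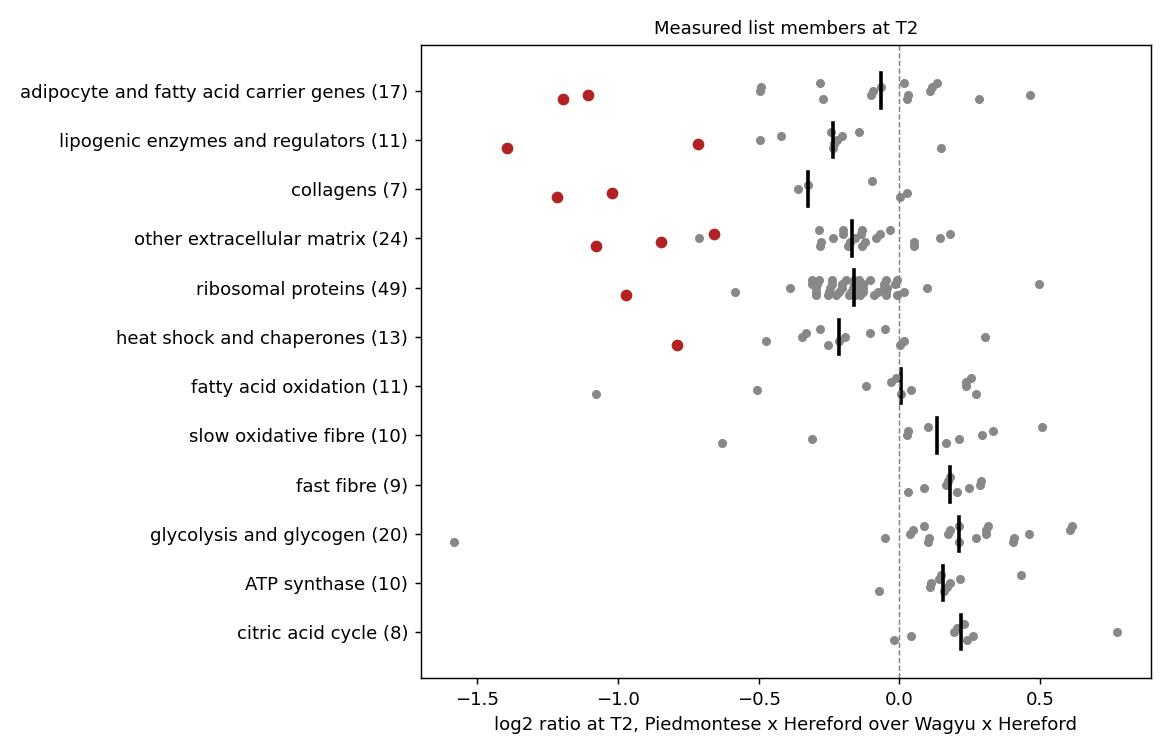
The log2 ratio of PxH over WxH at T2 (horizontal axis) for each measured gene of 12 lists (rows, with the number measured), red where the gene passed the test and grey where it did not. The black bar is the list's median, at -0.33 for collagens and 0.22 for the citric acid cycle, and the dashed line is the median of all named genes.

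The T2 difference could also be reached without the 4 T2 arrays, through the arrays that linked T2 to T1 and T3 within each cross and the PxH against WxH arrays at T1 and T3. Over these 16 arrays 3 of 17244 features passed (0.0174%), none of them named, and 687 had an unadjusted p under 0.05. All 20 genes that passed on the T2 arrays were lower in PxH by this route too, each with an unadjusted p of 0.0293 or less (limma). Of all 973 named genes, 36 were lower by this route at an unadjusted p under 0.05. The T2 test took part of its spread from these same 16 arrays, so the 20 genes were not chosen independently of them. SCD had -1.57 (SE 0.28, adjusted p = 0.0604, limma), COL1A1 had -1.21 (SE 0.20, adjusted p = 0.058, limma) and FABP4 had -1.20 (SE 0.21, adjusted p = 0.058, limma). Of 172 features lower at the threshold on the T2 arrays, 170 were lower by the other route, and of 26 that were higher, all 26 were higher. Over 973 named genes the 2 estimates correlated at 0.64, and over all features at 0.51. These are correlations across genes, which are not independent, between arrays that may hold the same RNA. Within the T2 arrays, the mean of replicates 1 and 2 was set against that of replicates 3 and 4. The 2 means correlated at 0.22 over named genes and at -0.02 over all features. LSP1, a protein of white blood cells, had -2.80, -2.15, -1.64 and 0.25 on the T2 arrays and 0.88 (SE 0.65) by the other route.

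**Figure D3:**
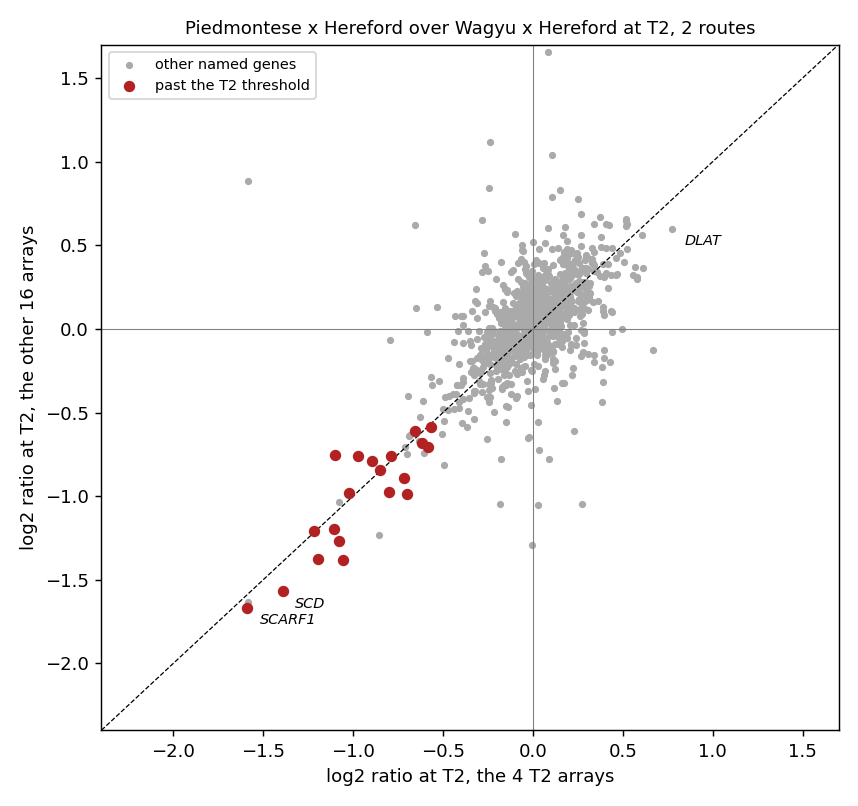
The log2 ratio of PxH over WxH at T2 from the 4 T2 arrays (horizontal axis) against that from the other 16 arrays (vertical axis) for 973 named genes, with the 20 genes that passed on the T2 arrays in red and the others in grey. The dashed line marks equal values, and all 20 red points are below 0 on both axes.

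Of the 20 named genes that passed at T2, 17 were also lower in PxH at T3 and 9 at T1, by sign alone. For some of these genes the difference at T2 was not the difference at T1 or T3. That was tested by the change of the PxH over WxH ratio between times. Between T1 and T2, 85 features changed (0.494%), 82 towards lower in PxH, and 8 of these 85 were named. Of the named ones, 7 were lower in PxH at T2: SCD, COL1A1, COL1A2, SCARF1, FABP4, FMOD and ACSM1. SCD was above 0 on all 4 T1 arrays (0.42, 1.08, 0.35 and 0.48) and on all 4 T3 arrays (0.52, 0.64, 1.36 and 1.28), so that it lay on the opposite side of 0 at T2. Its change from T1 was -1.98 (SE 0.23, adjusted p = 0.00104, limma) and its change from T3 was -2.34 (SE 0.23, adjusted p = 0.00028, limma). COL1A1 had a T1 mean of 0.26 and a T3 mean of -0.42, so its change from T1 passed (-1.48, SE 0.21, adjusted p = 0.00256, limma) and its change from T3 did not (-0.79, adjusted p = 0.257, limma). FABP4 had ratios between -0.11 and 0.13 at T1 and between -0.84 and -0.13 at T3, and its change from T1 was -1.09 (SE 0.19, adjusted p = 0.0127, limma).

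From T3, 64 features changed (0.372%), all towards lower in PxH at T2, and 4 were named: SCD, FMOD, RPL14 and SQSTM1. FMOD had a T3 mean of 0.20 and a change of -1.28 (SE 0.21, adjusted p = 0.00712, limma), and RPL14 a change of -1.27 (SE 0.25, adjusted p = 0.0376, limma). SQSTM1, a receptor of selective autophagy, had a change of -0.87 (SE 0.16, adjusted p = 0.0247, limma), but its 4 elements disagreed at T2, 2 below 0 and 2 above. ADIPOQ lay near 0 at T1 (mean 0.01) and at -0.50 at T3, where replicates 3 and 4 had -1.18 and -0.72 against -0.02 and -0.09 on replicates 1 and 2, and neither change passed. Against T1, 54 features passed without T2 replicate 1 and 45 without T2 replicate 2. With each dye-swap pair as a random block, 6 features passed against T1, of which COL1A2 was named (adjusted p = 0.0435, limma), and 11 against T3, of which SCD was named (adjusted p = 0.0313, limma).

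**Figure D4:**
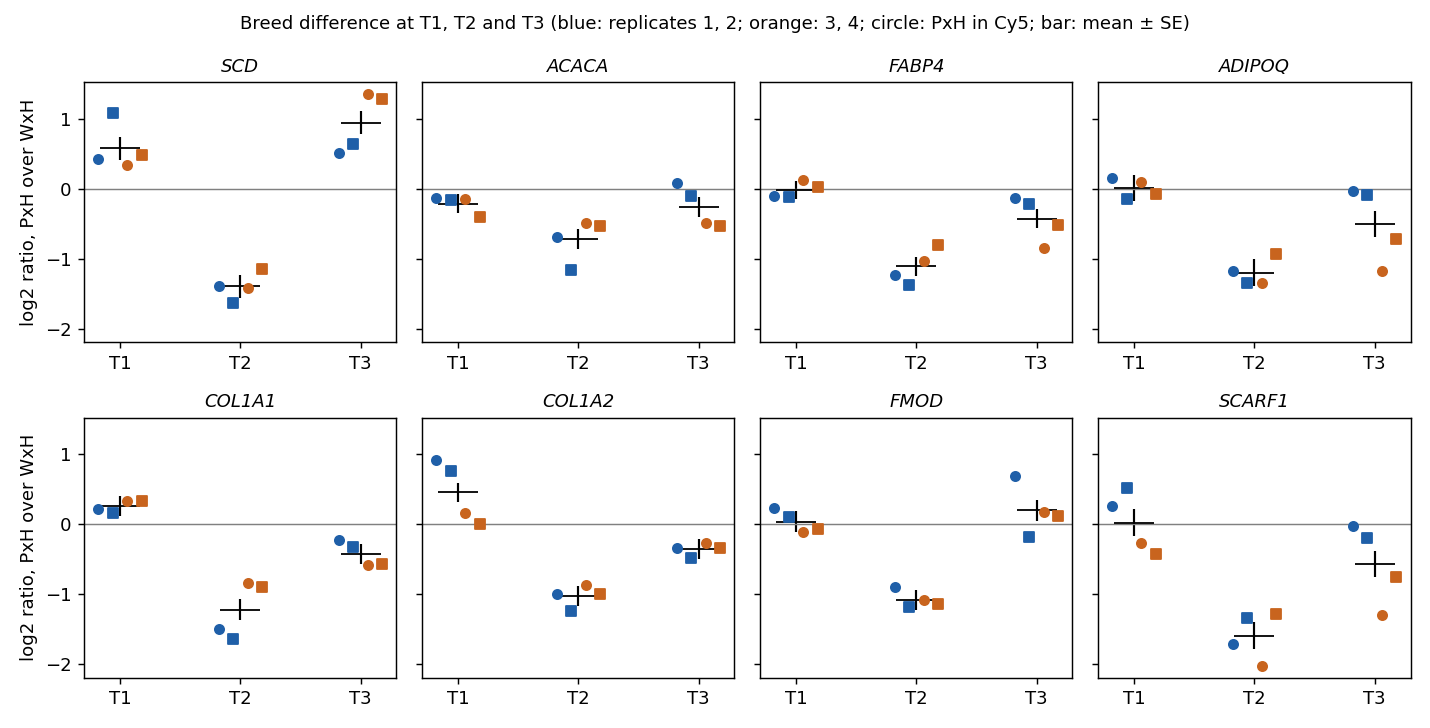
The log2 ratio of PxH over WxH (vertical axis) at T1, T2 and T3 for 8 genes, with 1 point per array, blue for replicates 1 and 2, orange for replicates 3 and 4, circles with PxH in Cy5 and squares with WxH in Cy5. The black bar is the mean of 4 arrays with its SE from the fit over 20 arrays. SCD sits above 0 at T1 and T3 and below 0 at T2.

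The 8 linking arrays give the change over time within each cross. In the WxH cross SCD was higher at T2 than at T1 on both arrays (1.98 and 2.15), and lower at T3 than at T2 on both (-2.34 and -2.20). In the PxH cross the same ratios were -0.65 and -0.06 for T2 over T1 and -0.27 and 0.23 for T3 over T2. After the dye adjustment, which these arrays need because each pair was hybridised in 1 dye order only, WxH changed by 2.14 (SE 0.25, adjusted p = 0.0016, limma) and then by -2.20 (SE 0.25, adjusted p = 0.00056, limma). FABP4 changed in WxH by 1.13 from T1 to T2 (adjusted p = 0.0226, limma) and by -0.92 from T2 to T3 (adjusted p = 0.0375, limma), while in PxH all 4 of its linking ratios lay between -0.15 and 0.07. FMOD changed in WxH by 1.56 (adjusted p = 0.00673, limma) and then by -1.74 (adjusted p = 0.00127, limma). COL1A1 and COL1A2 fell in WxH from T2 to T3 by 1.46 and by 1.25 on the log2 scale (adjusted p = 0.00341 and 0.00675, limma), and their PxH ratios were below 0 on all 4 linking arrays.

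Of the 20 genes, 6 were higher at T2 than at T1 in WxH at the threshold and none were lower, against 0.523% of all features called higher. From T2 to T3, 9 of the 20 were lower in WxH at the threshold and none were higher (0.912% of all features called lower). In PxH, none of the 20 passed from T1 to T2, where only 1 feature passed in all and was higher (0.00581%). From T2 to T3 in PxH, where 1.41% of all features passed, 1 of the 20 was higher (1.11% of all features) and 1 was lower (0.302%). The 20 genes were called for a lower ratio of PxH over WxH at T2, with part of the spread taken from the linking arrays. Whether the linking arrays hold the same RNA as the T2 arrays is not given in the labels. Counts above the share of all features can therefore follow from how the 20 were chosen. The difference between the crosses in these changes, tested on the linking arrays alone, passed for no feature from T1 to T2 (1161 at an unadjusted p under 0.05, limma), and SCD had -2.56 (SE 0.37, adjusted p = 0.0731, limma). From T3, 8 features passed (0.0465%), none of the 20 among them, and SCD had -2.11 (SE 0.37, adjusted p = 0.0579, limma).

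**Figure D5:**
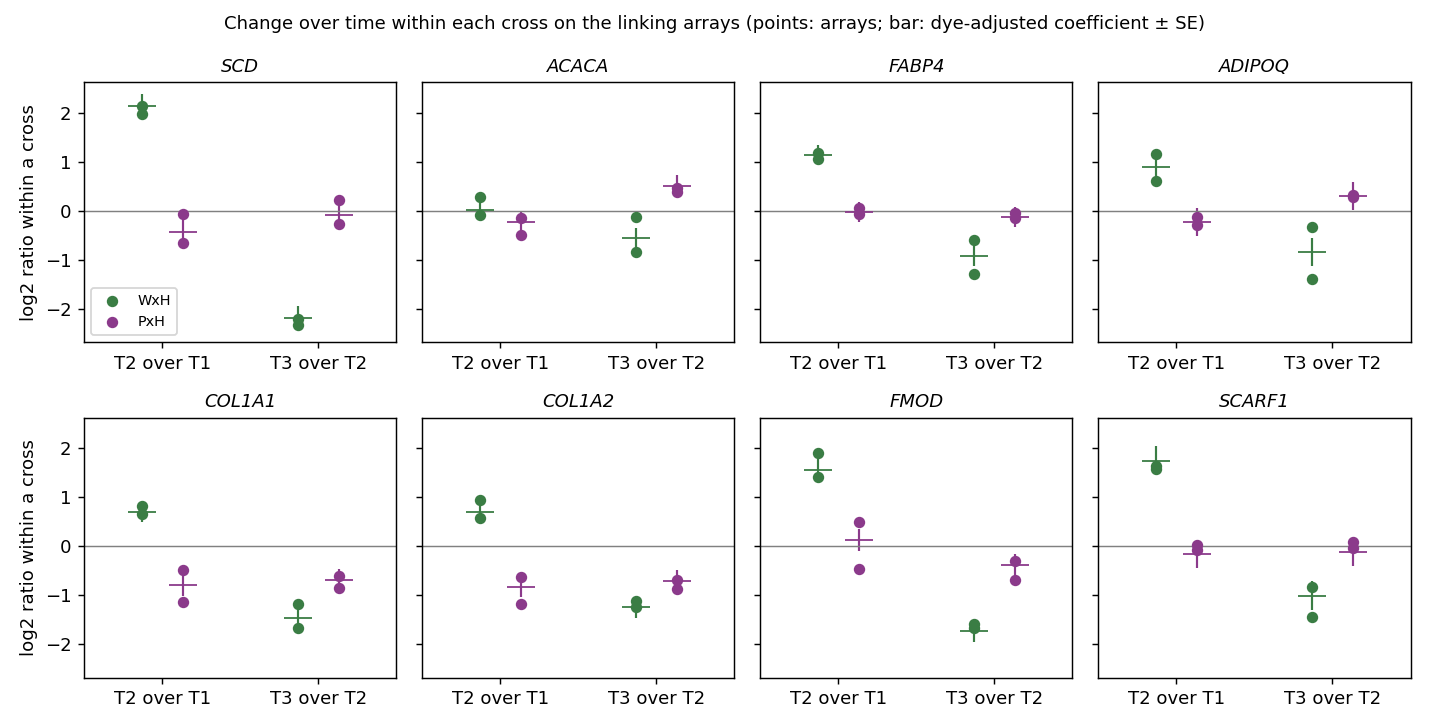
The log2 ratio of T2 over T1 and of T3 over T2 (vertical axis) within the WxH cross (green) and within the PxH cross (purple) for 8 genes, with 1 point per linking array. The bar is the dye-adjusted coefficient with its SE, and SCD in WxH lies at 2.14 and then at -2.20.

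On 3 arrays of newborn calves of the same crosses, all with PxH in Cy5, SCD had -0.67, -0.47 and -2.05, COL1A2 had -0.46, -0.51 and -0.79, and FABP4 had -0.04, -0.05 and 0.04. SCD and COL1A2 were thus lower in PxH on all 3, as at T2, whereas FABP4 lay near 0. By quantitative PCR, however, the study reports significantly lower FABP4 in PxH newborns, a difference that its arrays did not show. These arrays were not tested against T2, since the dye and the cross cannot be told apart on them.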

How the data were processed

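The values are the log2 ratios per array element that the authors deposited, of 2-colour bovine cDNA arrays. Their scanning, background and normalization steps are not given in the sources used here for these arrays, and direction was taken as Cy5 over Cy3. Ratios at or above 16.6 on the log2 scale, the cap, were set to missing (30 to 67 elements on a T2 array, of 20806 to 20934 measured). Each array was centred on its median (-0.154 to 0.141 on the T2 arrays). Of 21168 elements, 4490 had 1 gene name in the platform annotation, 188 several and 16490 none, and symbols were updated through gene IDs (4472 of 4490 matched RefSeq). In the table, 24 columns of other samples were not used. Elements of a gene were averaged, and a feature was tested if 80% or more of the 20 arrays had a value for it.

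limma 3.58.1 (R 4.3.3) fitted 1 coefficient for each of the hybridised pairs of groups and a dye term over 20 arrays (12 residual and 3.15 prior degrees of freedom), with Benjamini-Hochberg adjustment over all features and a threshold of 0.05. The methods of the study describe a mixed model for the fetal arrays only. The test was run first on simulated data with errors independent between arrays, so that run does not cover the likeness within dye-swap pairs. Members and lists were chosen with earlier results of these data known. Named genes were the 12 largest differences past the threshold with the same sign on every T2 array, filled up to 8 by p where fewer passed, the 3 smallest p of each list and of each change between times, and 5 genes chosen by name (ALDOA, FABP4, FABP5, MATR3, SCD). The remaining genes past the threshold (ACSM1, BoLA and NFKB2), XIRP1, FASN, PLIN1, THRSP, LEP, LPL, MGP, LSP1, COL4A1 and COL5A3 were named after their values were seen. The linking changes within a cross and the random block were added after seeing the data. The number of arrays limits the precision.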

Additional observations from a re-analysis of the deposited data

Results flagged for a closer look

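The genes whose PxH over WxH ratio differed between sampling points, by a test of the difference itself, were the following (limma, adjusted over all features). From T1 to T2 the changes were -1.98 for SCD, -1.48 for COL1A2, -1.48 for COL1A1, -1.61 for SCARF1, -1.09 for FABP4, -1.12 for FMOD, 1.21 for XIRP1 and -0.85 for ACSM1. XIRP1, an actin-binding protein of muscle, was below 0 on all 4 T1 arrays (-1.23, -1.58, -0.55 and -0.58) and above 0 on all 4 T2 arrays (0.41, 0.19, 0.19 and 0.10). Between T3 and T2 the differences were -2.34 for SCD, -1.28 for FMOD, -0.87 for SQSTM1 and -1.27 for RPL14. Among 84 genes examined, no T2 array stood far from the other 3 by Dixon's test. With 4 arrays this test has little power, and it cannot flag a split between the dye-swap pairs.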

How the results depend on the processing

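The 20 named genes that passed at T2 were lower in PxH with no centring, with scaled arrays, with 1 coefficient for each group, with array weights, with each T2 array left out in turn and in each dye order alone. For 19 of the 20 all 4 T2 arrays were below 0, so leaving out, scaling or weighting arrays could hardly turn the sign. The fit with 1 coefficient for each group also took the difference itself from the other arrays. The other alternatives computed by gene alter mainly the error, so there too the sign could hardly turn. Of the 20, 15 passed with no centring, 17 with no dye term, 14 with the replicate block, 5 with the random pair block, and 0 with pairs averaged or from the 4 T2 arrays alone. The number of features past the threshold at T2 (198) was 131 with no centring, 416 with arrays scaled to the same spread, 566 with 1 coefficient for each group, 510 with every element taken as a feature of its own, 523 with array weights, 0 with dye-swap pairs averaged over the 12 PxH against WxH arrays (488 at an unadjusted p under 0.05, limma), 15 with the pairs as a random block, and 0 from the 4 T2 arrays alone, where 1878 features without a dye term and 2335 with one had an unadjusted p under 0.05 in limma. The share lower in PxH, 86.9% of the 198, was 73.1% with scaled arrays, 71.9% with 1 coefficient for each group and 68.8% with array weights. Leaving out 1 T2 array gave 75 to 166. The fits on 4 arrays or on averaged pairs leave few residual degrees of freedom. For the change from T1 (85) the numbers were 195 with 1 coefficient for each group, 259 by element, 0 with pairs averaged (300 at an unadjusted p under 0.05, limma), 6 with the random block and 45 to 77 without 1 T2 array. For the change from T3 (64) they were 144 with 1 coefficient for each group, 0 with pairs averaged (229 at an unadjusted p under 0.05, limma), 11 with the random block and 47 to 60. By the other arrays, the 3 features past the threshold became 0 with no centring (857 at an unadjusted p under 0.05, limma). The random block was chosen after seeing the data.

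Replicate numbers run from 1 to 4 at every time, and with the replicate number as a block, fitted on the 12 PxH against WxH arrays with no dye term, 139 features passed at T2, 48 in the change from T1 and 69 in that from T3. Correlations of same-numbered arrays ran from -0.373 to 0.325, and from 0.094 to 0.325 where T2 was 1 of the times. Of the 12, 0 was highest for its own number, so the numbers were taken as names only. Between T1 and T3, same-numbered arrays correlated at -0.373 to -0.348, and the highest correlation with another number was 0.346 to 0.397. Whether arrays match across times under other numbers was not tested, and the tests of change treated the times as unpaired. Of 432 list medians recomputed, 8 had the other sign, in fatty acid oxidation, translation factors, proteolysis and immune markers, at values between -0.015 and 0.0477. Named genes past the threshold, 20 in the test reported, were 45 with 1 coefficient for each group, 43 with array weights and 35 with scaled arrays, and included those 20 each time. The array weights were estimated with a warning that convergence stopped early. Signal over background and depth are unknown here, and the causes of these shifts were not tested.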
